A study of Homo sapiens with 10 samples.

Results

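The genes that bring glutamine into the cell and pass it on were examined in HCT116 cells, an established line from a human colorectal carcinoma. The set was a list of 9 genes by name: the carriers *SLC1A5*, *SLC38A1* and *SLC38A2*, the glutaminase *GLS2*, the glutamine synthetase *GLUL*, and the glutamate enzymes *GLUD1*, *GOT1*, *GOT2* and *GPT2*. Of these, 8 were among the 13029 genes of the *ZMAT3* table, where *GLS2* had no row, and 9 were among the 17642 genes of the siRNA table. The study asked which RNAs are controlled by p53 and by ZMAT3, an RNA-binding protein whose gene p53 activates. RNA-seq was made from 10 libraries in 2 experiments, and the paper describes capture of polyadenylated RNA for the first of these. In the first, 3 libraries of *ZMAT3*-KO cells were set against 3 of *ZMAT3*-WT cells. In the second, 2 libraries of cells transfected with siRNAs against p53 (sip53, a pool of 4 siRNAs) were set against 2 of cells transfected with a control siRNA (siCTRL). All cells were grown in DMEM with serum, and the labels give no drug treatment of the cells sequenced.

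The *ZMAT3*-KO cells were made by CRISPR/Cas9 with a guide on either side of the element in a *ZMAT3* intron that p53 binds, after which *ZMAT3*-WT and *ZMAT3*-KO clones were grown from single puromycin-selected cells. The study worked with a single KO clone, so genotype and clone cannot be told apart. *ZMAT3* mRNA stood at 5.00, 5.20 and 5.26 log2 CPM (CPM, read counts scaled to the library's total) in the *ZMAT3*-WT libraries and at 2.25, 2.34 and 2.20 in the *ZMAT3*-KO libraries, 7.43-fold lower but not absent. *CDKN1A*, a cell-cycle inhibitor that p53 activates, was at 525.01 and 481.06 FPKM (sequenced fragments per transcript length and library size) in siCTRL and at 34.22 and 37.67 in sip53. Of 9 intestinal epithelial markers 7 were in the *ZMAT3* table. In *ZMAT3*-KO cells 4 of these fell at an adjusted p under 0.05 and 1.5-fold, against 569 of all 13029 genes. The 4 were all keratins, and the rest of the 7 were not called at the adjusted p alone. The 7 summed to 5759 to 6085 CPM in *ZMAT3*-WT and 3161 to 3242 CPM in *ZMAT3*-KO libraries. The highest single marker, a keratin, had a mean of 3210 CPM in *ZMAT3*-WT and 1670 CPM in *ZMAT3*-KO libraries. The siRNA table held 8 of the 9, summing to 3739 to 3975 FPKM in siCTRL and 3536 to 4172 FPKM in sip53. Of 12 markers of leukocytes, endothelium, fibroblasts, muscle and neurons, the *ZMAT3* table held 2, summing to 10.33 to 12.45 CPM over the 6 libraries. The siRNA table held 6 of the 12, summing to 8.74 to 12.08 FPKM in siCTRL and 19.68 to 29.25 FPKM in sip53. Most of the sip53 sum came from a single muscle marker, with a mean of 5.22 FPKM in siCTRL and 17.6 FPKM in sip53. The part of these markers in the results was not tested. Values are per library of pooled cells, so a change in the number of cells that express a gene and a change in RNA per cell cannot be told apart.

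Glutamine is the most abundant free amino acid in blood and a source of nitrogen and carbon for dividing cells. It enters through sodium-dependent carriers, of which SLC1A5 exchanges it for other neutral amino acids, while SLC38A1 and SLC38A2 take it up against its gradient. In mitochondria a glutaminase removes its amide nitrogen to give glutamate. GLUD1 or the aminotransferases GOT2 and GPT2 then turn glutamate into 2-oxoglutarate, which enters the citric acid cycle, and GOT1 carries out the reaction of GOT2 in the cytosol. GLUL runs the other way and makes glutamine from glutamate and ammonia. *GLS2* is known as a p53 target from earlier work.

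The members lie on chromosomes 1, 10, 12, 16 and 19 of hg38, and only *SLC38A1* (chr12:46183063-46270017) and *SLC38A2* (chr12:46358188-46372773) are neighbours. Both are on the minus strand, 88170 bases apart, with 0 protein-coding genes between them in GENCODE release 44. The remaining members are *GLS2* at chr12:56470944-56488414, *GLUL* at chr1:182378098-182392206, *GLUD1* at chr10:87050202-87094843, *GOT1* at chr10:99396870-99430624, *GOT2* at chr16:58707131-58734342, *GPT2* at chr16:46884362-46931289 and *SLC1A5* at chr19:46774883-46788594. *GPT2* is on the plus strand and the rest are on the minus strand. *GLUL*, *GLUD1* and *GOT2* have 4, 4 and 6 named pseudogenes, and reads that match both cannot be placed with certainty. *SLC38A2* overlaps the antisense RNA *SLC38A2-AS1*, *GLUD1* overlaps *SHLD2*, and *GLS2* overlaps *SPRYD4*, each on the opposite strand.

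The bases before the transcription start are shown for the 3 carriers, which rose together in *ZMAT3*-KO cells, and for the paired aspartate aminotransferases *GOT1* and *GOT2*, which fell. Each is the 250 bases before the RefSeq start (GRCh38.p14, minus strand, the start farthest upstream where there are several), written 5′ to 3′. Capitals mark matches to any of 5 motifs on either strand: AP-1 (TGANTCA), the E-box (CACGTG), the amino acid response element (TGATGNAA), the GC box (GGGCGG) and the p53 half-site.
SLC38A2 (chr12:46372774-46373023): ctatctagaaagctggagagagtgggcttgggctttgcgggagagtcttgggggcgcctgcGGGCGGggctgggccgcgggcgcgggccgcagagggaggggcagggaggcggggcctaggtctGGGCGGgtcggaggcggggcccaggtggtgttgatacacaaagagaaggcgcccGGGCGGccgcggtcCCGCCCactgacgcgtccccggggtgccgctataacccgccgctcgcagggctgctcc
SLC38A1 (chr12:46267988-46268237): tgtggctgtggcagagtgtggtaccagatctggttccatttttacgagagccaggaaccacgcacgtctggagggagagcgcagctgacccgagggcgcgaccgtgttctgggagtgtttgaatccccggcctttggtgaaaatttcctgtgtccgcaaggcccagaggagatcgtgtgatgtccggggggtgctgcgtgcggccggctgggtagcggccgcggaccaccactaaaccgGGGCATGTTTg
SLC1A5 (chr19:46788595-46788844): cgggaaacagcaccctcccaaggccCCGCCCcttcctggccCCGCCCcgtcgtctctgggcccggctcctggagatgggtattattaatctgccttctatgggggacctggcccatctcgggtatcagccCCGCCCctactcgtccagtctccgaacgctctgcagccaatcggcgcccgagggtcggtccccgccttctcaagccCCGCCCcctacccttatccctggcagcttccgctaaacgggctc
GOT1 (chr10:99430625-99430874): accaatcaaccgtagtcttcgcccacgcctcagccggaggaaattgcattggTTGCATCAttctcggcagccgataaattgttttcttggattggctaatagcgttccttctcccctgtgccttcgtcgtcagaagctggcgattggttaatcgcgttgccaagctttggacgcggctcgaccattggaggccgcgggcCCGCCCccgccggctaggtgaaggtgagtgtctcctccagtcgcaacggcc
GOT2 (chr16:58734317-58734566): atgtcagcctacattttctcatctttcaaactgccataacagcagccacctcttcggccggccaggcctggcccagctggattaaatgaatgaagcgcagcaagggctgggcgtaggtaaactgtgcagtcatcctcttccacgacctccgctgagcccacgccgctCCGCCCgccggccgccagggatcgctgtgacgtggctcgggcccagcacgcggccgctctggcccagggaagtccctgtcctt
The 5 windows are rich in G and C, from 58.0% in *GOT1* to 73.6% in *SLC38A2*. The *SLC38A2* window holds 4 GC boxes, the *SLC1A5* window 4, and the *GOT1* and *GOT2* windows 1 each. The *GOT1* window also holds the amino acid response element, from 198 to 191 bases before the start. The *SLC38A1* window, which lies inside the GENCODE span of the gene but outside its exons, holds a p53 half-site from 11 to 2 bases before the start. RefSeq starts were at hand for 8 of the 9 members, with 12 starts in all. A GC box was present before 9 of these 12 starts and before 42.6% of all 35116 starts of the same length. The amino acid response element was present before 2 of the 12 (*GOT1* and another start of *SLC1A5*) and 3.14% of all starts. The E-box, AP-1 and the p53 half-site each occurred before 1 of the 12, a start of *SLC1A5*, a start of *SLC38A1* and the *SLC38A1* start shown, against 6.34%, 6.57% and 5.57% of all starts. These matches are letters in a window and were not tied to binding.

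In *ZMAT3*-KO cells all 3 carriers rose, as did *GLUL* and *GPT2*, while *GLUD1*, *GOT2* and *GOT1* fell, by 1.07-fold to 1.28-fold. At an adjusted p under 0.05 and at least 1.5-fold, the rule by which the study called genes, 0 of the 8 members were called, against 8.96% of all genes. At the adjusted p alone 5 members were higher and 3 lower, against 28.7% and 30.1% of all genes, or 58.8% in either direction. The groups did not overlap in 7 of the 8 members, against 64.2% of all genes. The median absolute difference of the members was 0.18 on the log2 scale and that of all genes 0.17. By size, the members lay near the middle of the table.

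**Figure D1:**
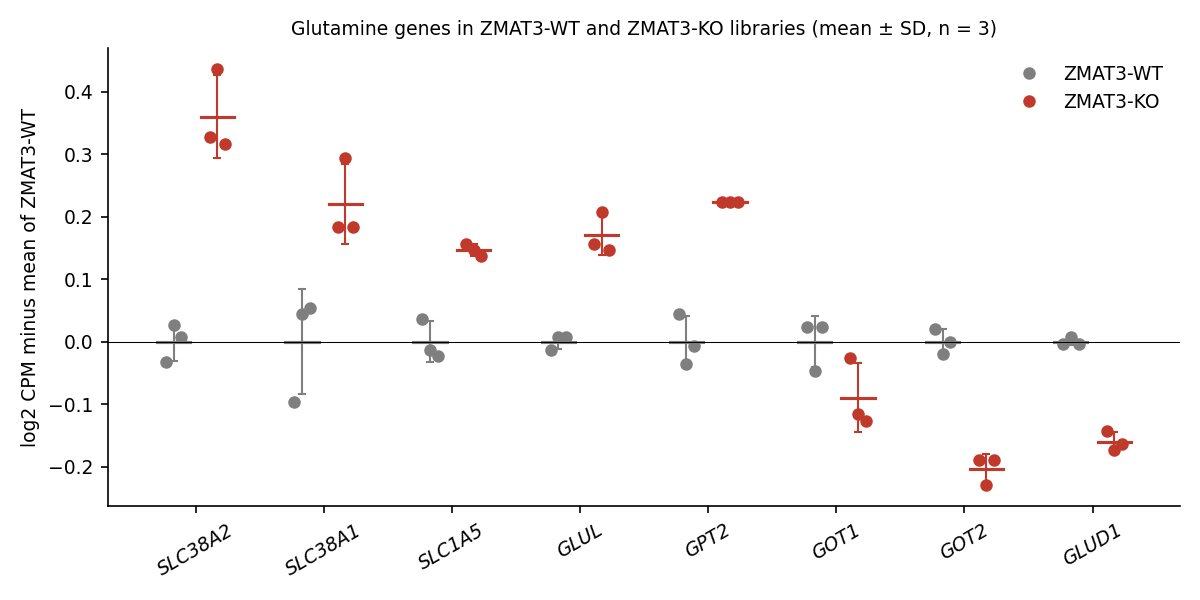
Log2 CPM of each member in each of the 3 *ZMAT3*-WT (grey) and 3 *ZMAT3*-KO (red) libraries, after subtracting the *ZMAT3*-WT mean of that gene; horizontal bars are means and vertical bars SD. The groups are apart in every gene shown but *GOT1*, and *SLC38A2* shows the largest difference among the members, 0.36.

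*SLC38A2* encodes a sodium-coupled carrier of glutamine, alanine and other small neutral amino acids. It was at 9.39, 9.45 and 9.43 log2 CPM in *ZMAT3*-WT and at 9.75, 9.86 and 9.74 in *ZMAT3*-KO libraries. Every KO library was above every WT library. The difference was 0.36 on the log2 scale (SE 0.0331, 95% interval 0.29 to 0.43), or 1.28-fold, with an adjusted p of 1.58e-06 by limma. Of all genes, 20.4% differed by more in either direction. Its neighbour *SLC38A1*, a carrier of the same family with a preference for glutamine, was at 8.39, 8.53 and 8.54 in *ZMAT3*-WT and at 8.67, 8.78 and 8.67 in *ZMAT3*-KO libraries. It rose by 0.22 (SE 0.0414), or 1.17-fold, with an adjusted p of 0.000548, and the lowest KO library lay above the highest WT library. *SLC1A5*, the exchanger, was at 8.28, 8.23 and 8.22 in *ZMAT3*-WT and at 8.40, 8.39 and 8.38 in *ZMAT3*-KO libraries. Its rise of 0.15 (SE 0.0269), or 1.11-fold, was smaller but as regular across libraries, with an adjusted p of 0.000505.

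*GLUL*, which makes glutamine, was at 7.33, 7.35 and 7.35 log2 CPM in *ZMAT3*-WT and at 7.50, 7.55 and 7.49 in *ZMAT3*-KO libraries. It rose by 0.17 (SE 0.0275), or 1.12-fold, with an adjusted p of 0.000214. The synthetase and the carriers of glutamine moved the same way. *GPT2*, the mitochondrial alanine aminotransferase, passes the amino group of glutamate to pyruvate. It was at 5.41, 5.33 and 5.36 in *ZMAT3*-WT and at 5.59 in each of the 3 *ZMAT3*-KO libraries. Its rise of 0.22 (SE 0.0353), or 1.17-fold, had an adjusted p of 0.000161.

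Of the 4 members that turn glutamate into 2-oxoglutarate, the other 3 moved the opposite way from *GPT2*. *GLUD1*, glutamate dehydrogenase, was at 7.53, 7.54 and 7.53 log2 CPM in *ZMAT3*-WT and at 7.39, 7.36 and 7.37 in *ZMAT3*-KO libraries. It fell by 0.16 (SE 0.0258), or 1.12-fold, with an adjusted p of 0.000194. *GOT2*, the mitochondrial aspartate aminotransferase, was at 8.12, 8.08 and 8.10 in *ZMAT3*-WT and at 7.91, 7.87 and 7.91 in *ZMAT3*-KO libraries. It fell by 0.20 (SE 0.0264), or 1.15-fold, with an adjusted p of 3.56e-05, and the groups did not overlap. *GOT1*, its cytosolic counterpart, was at 6.78, 6.71 and 6.78 in *ZMAT3*-WT and at 6.73, 6.64 and 6.63 in *ZMAT3*-KO libraries, so that the highest KO library lay above the lowest WT library. It fell by 0.09 (SE 0.0351), or 1.07-fold, with an adjusted p of 0.0385. This was the weakest call: it was lost in 5 of 11 alternatives, namely without a variance trend (adjusted p = 0.101) and without *ZMAT3*-WT replicate 1 (0.0738), *ZMAT3*-WT replicate 3 (0.129), *ZMAT3*-KO replicate 2 (0.0983) and *ZMAT3*-KO replicate 3 (0.148). For the other 7 members the highest adjusted p over the alternatives was 0.0152.

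**Figure D2:**
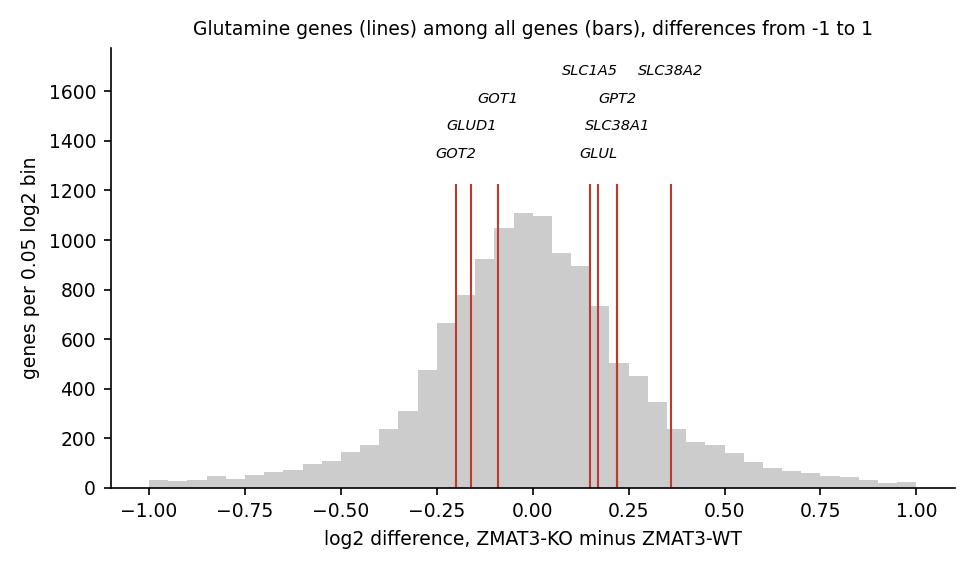
Histogram of the log2 difference, *ZMAT3*-KO minus *ZMAT3*-WT, over genes between -1 and 1 (96.9% of the 13029 genes, bins of 0.05), with red lines at the 8 members. The members lie from -0.20 (*GOT2*) to 0.36 (*SLC38A2*), inside the broad middle of the distribution.

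In the siRNA experiment values are per transcript length, so the members can be ordered by level. *SLC38A2* was highest in siCTRL, with a mean of 189.6 FPKM, followed by *GLUL* with 157 FPKM. *SLC1A5*, *GOT2* and *GOT1* followed at 99.7, 94.5 and 92.5 FPKM, and these neighbours in the order did not differ beyond the spread of their 2 libraries. *GLUD1* was at 65.2 FPKM, *SLC38A1* at 36.0 and *GPT2* at 17.0. *SLC38A2* thus stood well above its neighbour gene and family member *SLC38A1*. *GLS2* was hardly detected: it was at 0.02 and 0.44 FPKM in siCTRL and at 0.14 and 0.04 FPKM in sip53. The authors' mean normalized count was 5.74 for *GLS2*, against 1157 to 26192 for the other 8 members. It was below the minimum mean of 0.5 FPKM for testing, so no difference is given.

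**Figure D3:**
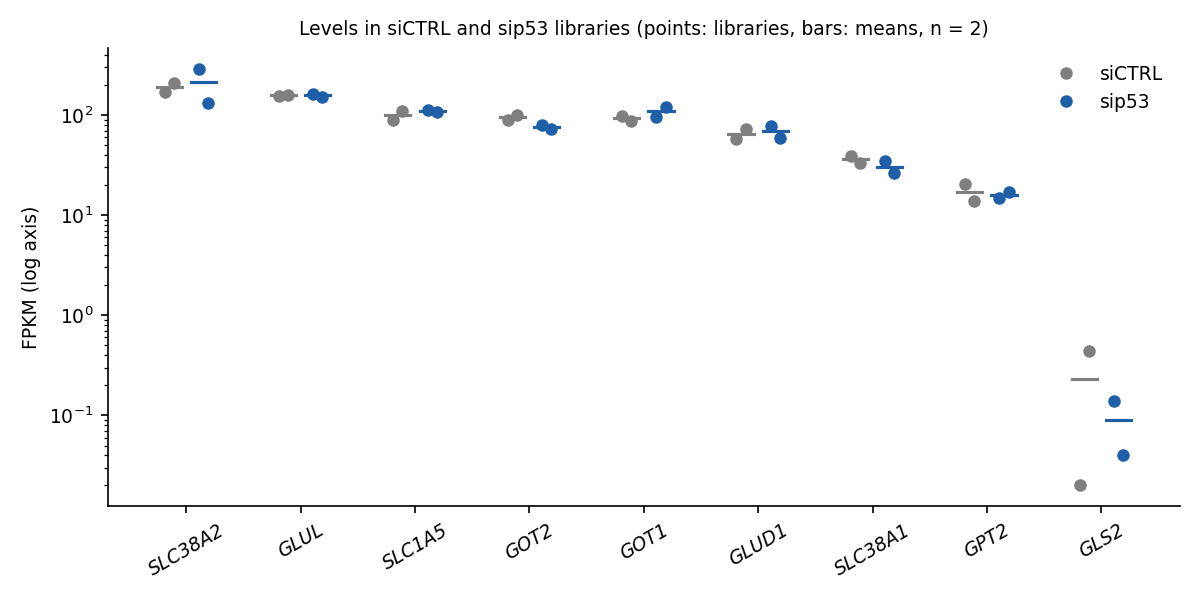
FPKM of the 9 members in the 2 siCTRL (grey) and 2 sip53 (blue) libraries on a log axis, ordered by the siCTRL mean; points are libraries and bars are means. The order runs from *SLC38A2* down to *GLS2*, which lies below 0.5 FPKM in every library, and the groups overlap in all tested members but *GOT2*.

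After p53 knockdown 0 of the 8 members tested changed at an unadjusted p under 0.05, the rule the study used here, against 15.1% of all genes tested (5.86% higher and 9.28% lower, or 836 and 1325 genes). After median centring of the libraries the split over all genes was 1120 higher and 1048 lower, and 0 members were called. At an adjusted p under 0.05 the count was also 0, against 0.273% of all genes tested. The lowest unadjusted p of any member over all alternatives was 0.0906. *GOT2* was the only member whose groups did not overlap, against 46.4% of all genes tested. It was at 88.56 and 100.37 FPKM in siCTRL and at 80.35 and 72.15 in sip53, a difference of -0.31 on the log2(FPKM + 0.1) scale (95% interval -0.77 to 0.16, adjusted p = 0.493 by limma). *GOT1* was at 97.14 and 87.82 FPKM in siCTRL and at 96.45 and 121.39 in sip53, a difference of 0.23 (interval -0.29 to 0.74), or 0.06 without sip53 replicate 2 and 0.39 without sip53 replicate 1. The sip53 libraries of *GOT1* spread more widely than the siCTRL libraries.

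The carriers differed little beside the spread between libraries. *SLC38A2* was at 171.32 and 207.81 FPKM in siCTRL and at 290.95 and 133.18 in sip53, so the highest and the lowest library were both sip53. Its difference was 0.06, with an interval of -0.94 to 1.06 that is the widest of the 8. *SLC1A5* was at 89.44 and 109.92 FPKM in siCTRL and at 112.25 and 107.11 in sip53 (difference 0.15, interval -0.35 to 0.64), the groups overlapping. *SLC38A1*, whose start carries the p53 half-site shown above, was at 38.76 and 33.25 FPKM in siCTRL and at 34.75 and 26.07 in sip53 (difference -0.25, interval -0.81 to 0.30). Without sip53 replicate 2 its difference was -0.05 and without sip53 replicate 1 -0.46. One sip53 library of *SLC38A1* lay within the siCTRL range and the other below it.

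*GLUL* was at 155.70 and 158.23 FPKM in siCTRL and 161.75 and 151.83 in sip53, with an interval of -0.45 to 0.44 around a difference of 0.00. *GLUD1* was at 57.15 and 73.25 FPKM in siCTRL and at 78.39 and 59.14 in sip53 (difference 0.07, interval -0.52 to 0.67). *GPT2* was at 20.25 and 13.83 FPKM in siCTRL and at 14.80 and 17.04 in sip53 (difference -0.08, interval -0.69 to 0.54), both sip53 values lying between the siCTRL values. In 5 of the 8 members tested (*SLC38A2*, *GLUD1*, *SLC1A5*, *GLUL* and *GOT2*) siCTRL replicate 2 and sip53 replicate 1 were the higher library of their group. In *GOT1* and *GPT2* both were the lower library, and in *SLC38A1* only sip53 replicate 1 was the higher. Over all 14274 genes tested the deviations of these libraries from their group means correlated at 0.616, given as a description since the libraries of a group of 2 deviate by equal and opposite amounts. The part of this pattern in the members' values was not tested. With 2 libraries a group the intervals reach 0.45 to 1.00 to either side on the log2 scale, so a change of the size seen in *ZMAT3*-KO cells was not detectable here. The difference measured in *ZMAT3*-KO cells lay inside the sip53 interval for all 8 members. The tables were normalized separately and no test was made between them.

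**Figure D4:**
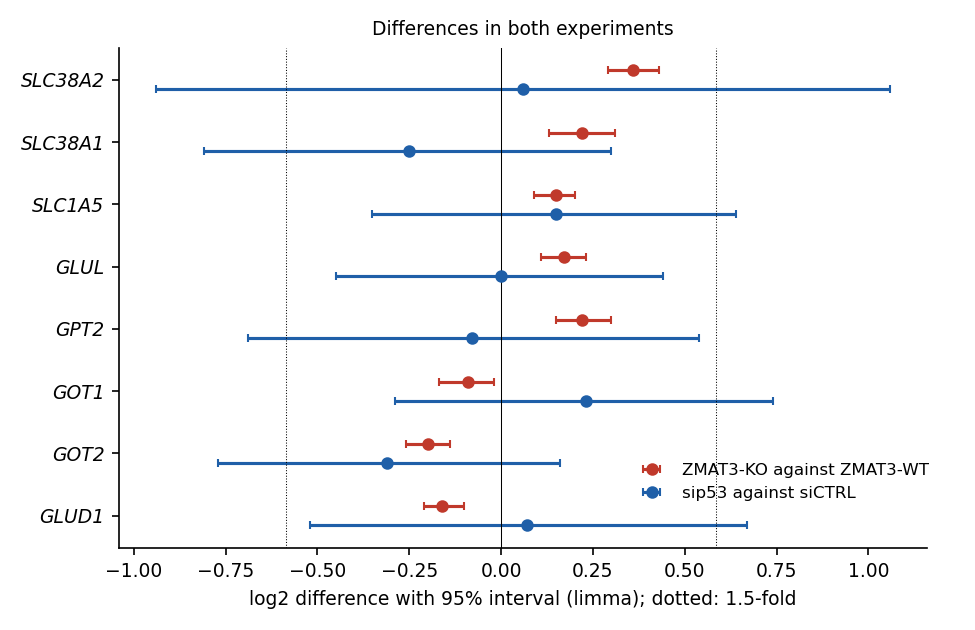
Log2 difference of each member with its 95% interval from limma, *ZMAT3*-KO minus *ZMAT3*-WT (red, 3 libraries a group) and sip53 minus siCTRL (blue, 2 libraries a group); dotted lines mark 1.5-fold. Every red interval leaves out 0 and every blue interval includes it, and the red points all lie within the blue intervals.

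The genes around the members were described as 6 lists. Among 15 other carriers of glutamine and neutral amino acids, 11 were in the *ZMAT3* table, of which 2 were higher and 4 lower at the adjusted p, against 28.7% and 30.1% of all genes. Their median difference was 0.00 against -0.005 for all genes, and -0.12 without *ZMAT3*-KO replicate 1. *SLC1A4*, a carrier of alanine, serine and cysteine and the closest relative of *SLC1A5*, was at 2.23, 2.25 and 2.06 log2 CPM in *ZMAT3*-WT and at 3.24, 3.17 and 3.14 in *ZMAT3*-KO libraries. It rose 2.01-fold (difference 1.01, SE 0.075, adjusted p = 2.08e-07). It was the only one of the 11 to pass 1.5-fold as well, against 8.96% of all genes. After p53 knockdown it was at 1.87 and 1.72 FPKM, against 1.70 and 1.92 in siCTRL (difference -0.01). At an unadjusted p under 0.05, 2 of the 11 carriers tested fell after p53 knockdown and 0 rose, against 9.28% and 5.86% of all genes tested. Their median was -0.37 against -0.04 for all genes tested, and -0.18 without sip53 replicate 1. These were *SLC7A6*, an exchanger of basic for neutral amino acids, from 18.50 and 14.55 to 5.10 and 4.66 FPKM (difference -1.73, adjusted p = 0.0661), and *SLC38A7*, a lysosomal carrier of glutamine, from 5.54 and 5.25 to 2.31 and 2.41 FPKM (difference -1.16, adjusted p = 0.117). Neither passed the adjustment over all genes tested, and both kept the unadjusted call in every alternative run. *SLC38A7* rose in *ZMAT3*-KO cells, from 3.60, 3.53 and 3.60 to 4.04, 4.12 and 4.12 log2 CPM (difference 0.51, adjusted p = 2.66e-06).

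The 10 amidotransferases use the amide nitrogen of glutamine to build nucleotides, asparagine, hexosamines and NAD. In *ZMAT3*-KO cells 3 were higher and 4 lower at the adjusted p, against 28.7% and 30.1% of all genes, with a median of 0.01. *ASNS*, asparagine synthetase, was at 5.96, 5.89 and 5.93 log2 CPM in *ZMAT3*-WT and at 6.63, 6.60 and 6.66 in *ZMAT3*-KO libraries, 1.63-fold higher (difference 0.70, SE 0.0329, adjusted p = 2.37e-09). It was the only one of the 10 past the adjusted p and 1.5-fold, against 8.96% of all genes. *ASNS* was also at 79.99 and 86.25 FPKM in sip53 against 38.01 and 43.84 in siCTRL, 2.03-fold higher at an unadjusted p under 0.05 (adjusted p = 0.122). By the same rule *GFPT2*, an enzyme of hexosamine synthesis, rose by 0.70, *PFAS*, of purine synthesis, fell by 0.50, and *CTPS1*, of CTP synthesis, fell by 0.49, with adjusted p-values of 0.239, 0.317 and 0.300. The unadjusted call held in 10 of 10 alternatives for *ASNS*, 6 for *GFPT2*, 4 for *PFAS* and 3 for *CTPS1*. After median centring of the libraries *PFAS* and *CTPS1* were not called, and the calls of *GFPT2*, *PFAS* and *CTPS1* were also lost without siCTRL replicate 1, siCTRL replicate 2 or sip53 replicate 2, and that of *CTPS1* without sip53 replicate 1. In *ZMAT3*-KO cells all 3 of these fell, by 0.26, 0.27 and 0.21 on the log2 scale, with adjusted p-values of 0.00398, 0.000102 and 8.81e-05.

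Of 11 other enzymes that make or use glutamate, 8 were in the *ZMAT3* table, of which 3 were higher and 1 lower at the adjusted p (28.7% and 30.1% of all genes), with a median of 0.03, or 0.07 without *ZMAT3*-WT replicate 2. In sip53, 2 of 8 fell and 0 rose at the unadjusted p, against 9.28% and 5.86% of all genes tested. Their median was 0.27 against -0.04 for all genes tested, and it was 0.11 without siCTRL replicate 1 or sip53 replicate 1 and 0.43 without sip53 replicate 2. *ABAT*, the aminotransferase of GABA, went from 2.16 and 2.21 to 1.16 and 0.65 FPKM (difference -1.23, adjusted p = 0.220), and *AADAT*, which acts on aminoadipate and kynurenine, from 11.14 and 7.12 to 4.02 and 5.61 FPKM (difference -0.89, adjusted p = 0.268). The call of *ABAT* was lost without siCTRL replicate 1, siCTRL replicate 2 or sip53 replicate 2, and that of *AADAT* with no filter and without siCTRL replicate 1 or sip53 replicate 1. The malate-aspartate shuttle, in which GOT1 and GOT2 take part, had 6 other genes in the *ZMAT3* table, of which 2 were higher and 3 lower at the adjusted p, against 28.7% and 30.1% of all genes, with a median of -0.16. *SLC25A13*, a mitochondrial exchanger of aspartate for glutamate, fell from 5.07, 5.08 and 5.07 to 4.84, 4.83 and 4.83 log2 CPM (difference -0.24, adjusted p = 0.000103). It was also the only one of the 6 called after p53 knockdown, where 9.28% of all genes tested were called lower. It went from 5.33 and 5.51 to 2.58 and 1.84 FPKM (difference -1.28, adjusted p = 0.134).

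Glutathione and proline are made from glutamate. Of 9 genes for them, 4 rose and 4 fell in *ZMAT3*-KO cells at the adjusted p (28.7% and 30.1% of all genes). After p53 knockdown 0 were called, against 15.1% of all genes tested. The median in *ZMAT3*-KO cells was -0.09, but 0.00 without *ZMAT3*-WT replicate 2 and -0.04 without *ZMAT3*-KO replicate 2. *SLC7A11*, which exports glutamate in exchange for cystine, was at 4.94, 5.14 and 5.11 log2 CPM in *ZMAT3*-WT and at 5.99, 6.12 and 6.06 in *ZMAT3*-KO libraries, 1.99-fold higher (adjusted p = 7.08e-09). It was the only one of the 9 past 1.5-fold as well, against 8.96% of all genes. A further 9 genes were for isocitrate dehydrogenases, which make 2-oxoglutarate, the 2-oxoglutarate dehydrogenase complex, which uses it, and malic enzymes. At the adjusted p 3 of them rose and 5 fell in *ZMAT3*-KO cells (28.7% and 30.1% of all genes), and 0 passed 1.5-fold as well (8.96% of all genes). In sip53 0 of them were called, against 15.1% of all genes tested. Of 6 regulators of these genes, 4 were measured in each table. Of these 1 rose and 1 fell in *ZMAT3*-KO cells at the adjusted p, against 28.7% and 30.1% of all genes. In sip53, 1 fell at the unadjusted p, against 9.28% of all genes tested. It was *SIRT4*, a mitochondrial sirtuin that restrains GLUD1, from 3.95 and 3.66 to 2.62 and 2.03 FPKM (difference -0.70, adjusted p = 0.276). This call was lost with the replicate block and without siCTRL replicate 1, siCTRL replicate 2 or sip53 replicate 2.

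**Figure D5:**
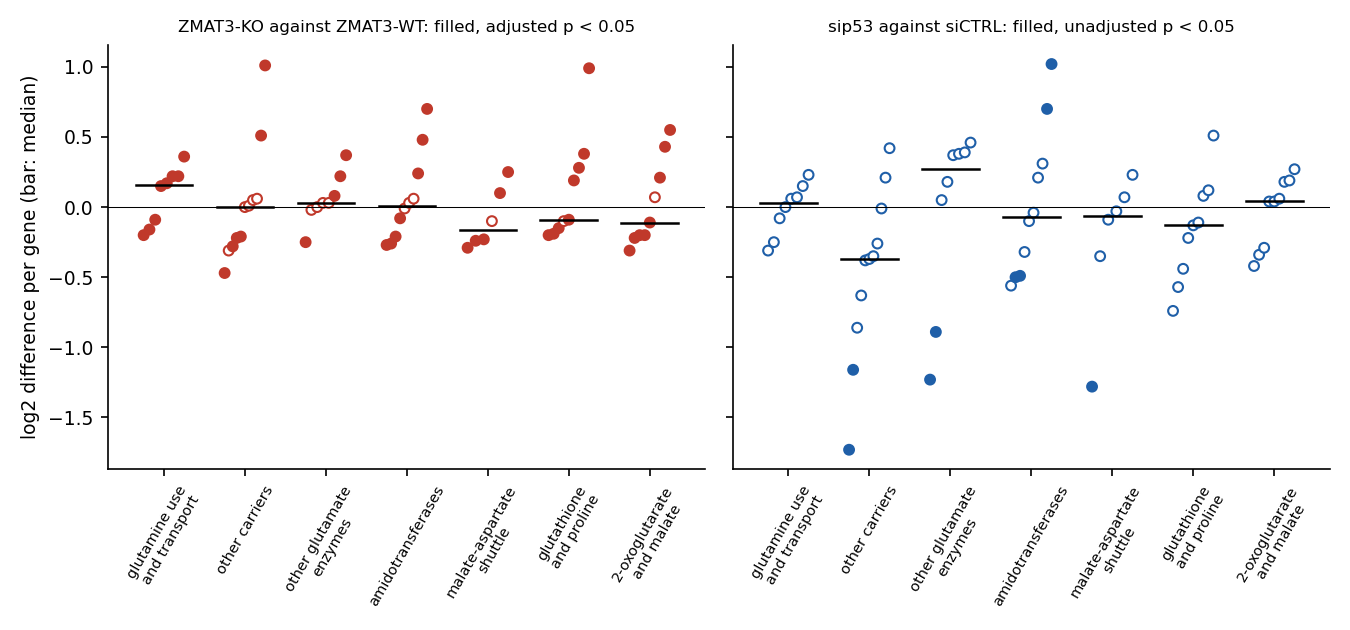
Log2 difference of every measured gene in the glutamine set and the 6 surrounding lists, in *ZMAT3*-KO (left, red) and sip53 (right, blue) cells; bars are medians. Filled points passed an adjusted p under 0.05 on the left and an unadjusted p under 0.05 on the right, and 0 points of the glutamine set are filled on the right.

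*SLC38A2* was the member with the largest absolute difference in *ZMAT3*-KO cells, and the genes most like it were sought over all 10 libraries. Likeness was the Euclidean distance between log2 values, each centred on the control mean of its own experiment, over 11385 genes tested in both. The nearest were *SLC44A1*, a choline transporter, at a distance of 0.30, *NAPEPLD*, an enzyme of N-acylethanolamine synthesis, at 0.31, and *SDR16C5*, a retinol dehydrogenase, at 0.33, against a median of 1.29. Their differences in *ZMAT3*-KO cells were 0.24, 0.46 and 0.30, and in sip53 cells 0.10, 0.03 and 0.16. The distance also counts the spread between libraries of a group, and the sip53 libraries of *SLC38A2* were at 290.95 and 133.18 FPKM. These genes are therefore not alike by the *ZMAT3*-KO difference alone, and the part of that spread in the likeness was not tested.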

How the data were processed

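RNA-seq was measured in 10 HCT116 libraries, grouped by their labels: 3 *ZMAT3*-WT, 3 *ZMAT3*-KO, 2 siCTRL and 2 sip53. For the *ZMAT3* libraries Cutadapt trimming, STAR alignment (hg38) and RSEM quantification are described. The values the authors deposited are log2 CPM, with the same distribution in all 6 libraries. For the siRNA libraries the authors deposited values read here as FPKM from their size against gene length, and a mean signal (mean normalized count) per gene. How these were made is not given in the sources used here. The submitters' processing notes name CASAVA 1.8.2, TopHat2 2.0.8, FastQC 0.11.2, hg19 and hg38 without saying for which libraries. The authors' own fold changes, test scores and p-values, also deposited, were not used. No table held counts, so depth is unknown and no counting interval is given.

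Each experiment was fitted on its whole table with limma 3.58.1 in R 4.3.3 (eBayes, variance trend on), with two-sided tests and p-values adjusted by Benjamini-Hochberg over all genes tested. The *ZMAT3* values were used as deposited. The siRNA values were taken as log2(FPKM + 0.1) for the 14274 genes averaging 0.5 FPKM or more. The added constant understates changes of low genes. Intervals are limma's 95% intervals. The study's rules for calling genes were kept: adjusted p under 0.05 and 1.5-fold for *ZMAT3*, and unadjusted p under 0.05 for sip53. Lists were described by counts and medians. The scripts were tested on simulated data. Coordinates came from GENCODE release 44 and promoter bases from RefSeq (GRCh38.p14). Figures were drawn with matplotlib 3.10.9 in Python 3.11.15.

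The genes named are the members, up to 4 genes of each list with the largest change among those called, the targeted gene and *CDKN1A*, and the 3 genes most like *SLC38A2*. Members and lists were chosen with earlier results of these data known. Some items are not reported here. The *ZMAT3* replicates are described as biological, but nothing says that libraries of a group came from separate cultures, so p-values measure the spread between these libraries. Alternatives were another pseudocount, other filters, no variance trend, centring on the median gene, a block for replicate number, other thresholds, and leaving out each library.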

Additional observations from a re-analysis of the deposited data

How the results depend on the processing

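In *ZMAT3*-KO cells all 88 alternative values of the 8 members kept their direction, and the only call lost was that of *GOT1*, in 5 fits. The filters, the variance trend and the replicate block cannot change a member's difference in either experiment, so they bear on the calls only. Only the remaining settings could have changed a direction. In *ZMAT3*-KO cells the added 1 CPM and the median centring left every member's difference unchanged as rounded here. There only leaving out a library moved a difference, so most of the 88 values had little room to change direction. With no fold threshold 5 members and 3734 genes were higher and 3 members and 3925 genes lower. With 1 CPM added, 397 genes were higher at the adjusted p and 1.5-fold. In sip53 cells 0 of 80 alternative values of the members were called, and 11 changed sign. Centred on the median gene of each library, the difference was 0.07 for *GLUL* and 0.00 for *GPT2*. Leaving out each library in turn gave -0.05 to 0.04 for *GLUL*, -0.13 to 0.28 for *GLUD1*, -0.35 to 0.20 for *GPT2*, 0.00 to 0.29 for *SLC1A5*, -0.50 to 0.62 for *SLC38A2*, -0.46 to -0.05 for *SLC38A1*, 0.06 to 0.39 for *GOT1* and -0.40 to -0.22 for *GOT2*. It also gave 482 to 720 genes higher and 635 to 1171 lower, from 836 and 1325 with all libraries, since fewer libraries entered each fit. A minimum mean of 5 FPKM, which leaves fewer genes, gave 555 higher, and an adjusted p under 0.05 gave 5 higher and 34 lower.

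Same-numbered libraries did not deviate together. Their deviations from the group means correlated at -0.0387, -0.0218 and -0.093 in the *ZMAT3* experiment and at -0.616 in the siRNA experiment, so the numbers do not pair the libraries. In the siRNA experiment siCTRL replicate 2 deviated together with sip53 replicate 1, and siCTRL replicate 1 with sip53 replicate 2 (0.616), while the labels give no such link. With the replicate number as a block, 434 genes were higher and 650 lower in sip53 cells, and the members called in either experiment did not change in number. In the siRNA experiment this block joined libraries that deviated in opposite directions, so it cannot show whether calls hold under the link seen. A fit with that link was not run. For the *ZMAT3* table this block moved no count of calls by over 1.5 times. Depth is unknown and 2 libraries a group limit the sip53 intervals.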
